A study of Homo sapiens with 20 samples.

Results

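RNA levels of 39 genes of autophagy and of the aggresome were followed across 10 groups of cultured cells, out of 18305 genes measured. The members were chosen by name: the genes of the ULK complex, the class III PI3-kinase complex, the membrane supply proteins, the conjugation enzymes, the ATG4 proteases, the ATG8 proteins, the main cargo receptors with HDAC6, and the transcription factor TFEB. AMO1, L363 and RPMI-8226 are myeloma cell lines and ARH-77 is a B-lymphoblastoid line. Parental (WT) cells of the 4 lines were compared with bortezomib-resistant (BtzR) cells of each line and with cells of AMO1 and of L363 resistant to carfilzomib (CfzR). Bortezomib and carfilzomib block the proteasome, and resistant cells had been selected in culture and were kept in 90 nM of their drug, so that resistance and continued exposure cannot be told apart. All cells grew in RPMI-1640 medium with serum. Each group had 2 libraries, and each resistant group stands for a single derived line. The labels do not say whether the libraries of a group came from separate cultures, so p-values measure only the spread between these libraries. These are bulk samples, in which fewer cells with a transcript and less of it per cell cannot be told apart. The question these comparisons address is whether proteasome inhibitor resistance goes with other levels of the genes of the second degradation route of the cell.

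Autophagy encloses cytoplasm in a double membrane, the autophagosome, and delivers it to the lysosome. The ULK kinase complex starts the process, the class III PI3-kinase complex marks the membrane with a lipid, ATG9 and ATG2 proteins supply membrane, and a ubiquitin-like conjugation system fixes ATG8 proteins (LC3 and GABARAP families) to it. Cargo receptors such as p62, the product of SQSTM1, bind both ubiquitin and ATG8 proteins. When the proteasome fails, ubiquitinated proteins are carried along microtubules with the help of HDAC6 into an aggresome, from which autophagy can clear them. Plasma cells and myeloma cells make large amounts of immunoglobulin and use both routes.

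The libraries labelled AMO1 CfzR stood apart from their label. Over all genes they correlated with the L363 libraries at r = 0.986 to 0.992 and with the other AMO1 libraries at r = 0.878 to 0.883, while libraries of different L363 groups correlated at r = 0.985 to 0.989. They were therefore compared with both AMO1 WT and L363 WT, and are called the libraries labelled AMO1 CfzR throughout. Replicates correlated at r = 0.986 to 0.998, and the ARH-77 WT pair differed most, with a median gap between replicates of 0.21 on the log2 scale. The values are FPKM, sequenced fragments scaled to the length of the transcript and the size of the library, which can be compared between genes. The listed FPKM summed to 457317 to 494850 per library, and the number of reads is unknown. The B-cell markers MS4A1, CD22 and PAX5 had group means of 39.5 to 261 FPKM in ARH-77 and of 0 to 0.44 FPKM in the other lines. Of the plasma cell markers, IRF4 lay at 63.4 to 228 FPKM over all groups. PRDM1 was at 0.535 to 1.25 FPKM in ARH-77 and at 12 to 39.7 FPKM in the other lines. SDC1 was at 8.745 and 9.595 FPKM in ARH-77 WT and BtzR and at 53.04 FPKM or more in the other lines. The ARH-77 means of IRF4, TNFRSF17, CD38 and XBP1 lay within the range of the other lines. T-cell marker CD3E was at 8.7 FPKM in AMO1 WT and at 0.9 FPKM in AMO1 BtzR, with CD3D, the other T-cell marker, listed at 0 in both, and the part of this difference in the AMO1 results was not tested. Of the 6 plasma cell markers, TNFRSF17 (96.1 and 6.39 FPKM) and CD38 (51.2 and 2.73 FPKM) were lower in RPMI-8226 BtzR than in WT, while IRF4, PRDM1 and XBP1 were higher and the SDC1 libraries overlapped. In AMO1, SDC1 was at 3075 FPKM in WT and 1316 in BtzR, CD38 at 14.2 and 6.39 FPKM and IRF4 at 155.7 and 118.7 FPKM. PRDM1 was higher in AMO1 BtzR (26.3 FPKM in WT and 37.9 in BtzR), and the TNFRSF17 and XBP1 libraries overlapped. The part of these differences in the results of the same lines was not tested.

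The promoters of the 3 members called in RPMI-8226 BtzR cells are shown, since these genes moved in different directions there. They are the 250 bases before the transcription start in RefSeq on build GRCh38.p14, 5′ to 3′ on the strand of the gene. Capitals mark the GC box (GGGCGG) and the cyclic AMP response element (TGACGTCA), searched on both strands. Both motifs were chosen after the promoters had been read.
SQSTM1 (chr5:179820655-179820904, plus strand): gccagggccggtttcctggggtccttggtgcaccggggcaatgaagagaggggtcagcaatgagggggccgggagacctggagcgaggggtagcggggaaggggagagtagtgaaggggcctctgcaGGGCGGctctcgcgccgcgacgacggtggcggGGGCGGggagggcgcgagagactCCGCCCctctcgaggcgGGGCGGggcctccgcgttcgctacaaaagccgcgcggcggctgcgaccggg
WIPI1 (chr17:68457497-68457746, minus strand): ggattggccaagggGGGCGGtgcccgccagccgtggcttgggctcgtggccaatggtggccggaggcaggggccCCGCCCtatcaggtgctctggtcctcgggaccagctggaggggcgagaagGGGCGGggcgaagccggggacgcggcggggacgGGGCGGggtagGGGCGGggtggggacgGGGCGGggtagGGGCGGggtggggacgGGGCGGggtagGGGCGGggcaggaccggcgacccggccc
GABARAPL1 (chr12:10212627-10212876, plus strand): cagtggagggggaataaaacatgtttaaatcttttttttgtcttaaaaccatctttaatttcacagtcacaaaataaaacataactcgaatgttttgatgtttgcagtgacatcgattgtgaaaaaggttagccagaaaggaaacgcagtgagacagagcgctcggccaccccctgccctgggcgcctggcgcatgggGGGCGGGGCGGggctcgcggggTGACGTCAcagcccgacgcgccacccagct
A promoter was found for 35 of the 39 members, and RB1CC1, UVRAG, ATG4D and MAP1LC3A had no entry. Where a gene had several entries, as SQSTM1 with 3, the nearest to the start of its main GENCODE transcript was used. The AMBRA1 entry began 2659 bases from that start. Those of MAP1LC3B, ATG2B, BECN1, GABARAP and ATG12 began 293 to 536 bases from theirs, more than the 250 bases searched. The WIPI1 promoter held 9 GC boxes, a number reached by 0.285% of 35116 promoters. SQSTM1 had 4 of them (7.63% of promoters had as many) and GABARAPL1 had 2 (24.3%). A GC box was present in 26 of the 35 member promoters and in 42.6% of all promoters. The cyclic AMP response element of GABARAPL1 was the only one among the members and was present in 1.65% of all promoters. The CLEAR site, the motif through which TFEB acts, was in 0 of 35 member promoters and in 0.308% of all promoters. CACGTG, the core of that site, was in the promoters of ATG14 and ATG3 and in 6.34% of all promoters. TGACNNNGC, the antioxidant response element, was in those of ATG101, MAP1LC3B and CALCOCO2 and in 10.9% of all promoters. TGATGNAA, the C/EBP-ATF response element, was in 0 member promoters and in 3.14% of all promoters, and the forkhead motif GTAAACA was in that of CALCOCO2 and in 2.98% of all promoters. A match is a description of the letters and not of a bound site.

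SQSTM1 was the most abundant member, with a mean of 126.7 FPKM over the 10 groups, followed by GABARAP (82.9 FPKM), ATG3 (69.5 FPKM) and GABARAPL2 (48.9 FPKM). ULK2 had a mean of 0.825 FPKM, and MAP1LC3A, which encodes the LC3A form, was listed at 0 to 0.09 FPKM in the group means and was not tested. Between 36 and 38 members reached 1 FPKM in each library.

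**Figure D1:**
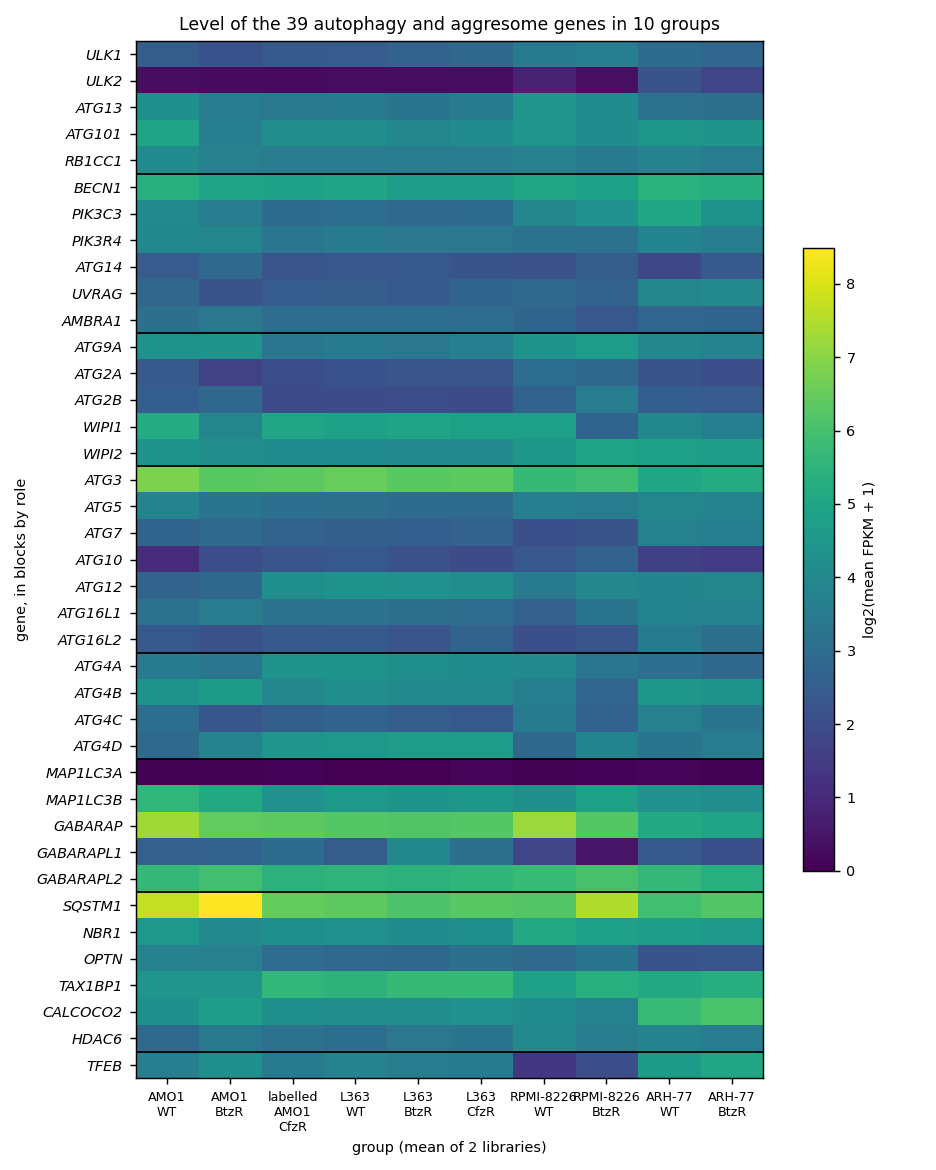
Level of the 39 members (rows, in blocks by role) in the 10 groups (columns), as log2 of the mean FPKM of 2 libraries plus 1. SQSTM1 was highest in AMO1 BtzR (357 FPKM), MAP1LC3A was near 0 in all groups, and the libraries labelled AMO1 CfzR had levels near those of the L363 groups.

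The WT lines differed in nearly all members. In limma's moderated F test over the 4 WT lines, 37 of 38 tested members passed a Benjamini-Hochberg adjusted p of 0.05, as did 92.6% of all 13089 genes tested. GABARAPL2, an ATG8 protein, was the exception (adjusted p = 0.126), with WT means of 44.8 to 53.1 FPKM. TFEB, the transcription factor of lysosome and autophagy genes, had the largest spread between WT lines: 23.7 ± 5.59 FPKM in ARH-77, 12.6 ± 0.18 in L363, 11.3 ± 0.03 in AMO1 and 1.59 ± 0.19 in RPMI-8226 (SD, n = 2 each). The difference between L363 and AMO1 did not pass (limma, adjusted p = 0.384), and ARH-77 lay above and RPMI-8226 below both. GABARAP was at 152 ± 15.1 FPKM in AMO1 and 146 ± 6.03 in RPMI-8226, a difference that did not pass (adjusted p = 0.701), at 74.5 ± 1.68 in L363 and at 35.7 ± 7.88 in ARH-77. SQSTM1 was at 207 ± 32.9 FPKM in AMO1, above the other lines, which followed as L363 (82.3 ± 2.04), RPMI-8226 (74.1 ± 5.5) and ARH-77 (58.8 ± 8.82). Of these 3 neighbours, L363 and RPMI-8226 (adjusted p = 0.539) and RPMI-8226 and ARH-77 (adjusted p = 0.156) had no difference past the threshold.

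ATG3, the E2-like enzyme that passes ATG8 proteins to the membrane, was highest in AMO1 (110.5 ± 9.46 FPKM), then L363 (90.1 ± 3.8), RPMI-8226 (50.8 ± 2.21) and ARH-77 (31.0 ± 0.23), and each neighbouring pair differed (limma, highest adjusted p = 0.00337). ULK2, a kinase of the ULK complex, was at 3.5 ± 0.54 FPKM in ARH-77, 0.74 ± 0.03 in RPMI-8226, 0.255 ± 0.01 in AMO1 and 0.22 ± 0.03 in L363. The last pair had no difference past the threshold (adjusted p = 0.716). PIK3C3, the lipid kinase of the class III complex, was at 32.2 ± 13.9 FPKM in ARH-77, where the libraries read 22.4 and 42.0, at 14.9 ± 0.5 in AMO1, 14.3 ± 0.18 in RPMI-8226 and 7.46 ± 0.42 in L363. Between AMO1 and RPMI-8226 the PIK3C3 difference did not pass (adjusted p = 0.835). MAP1LC3B, which encodes LC3B, was at 47.1 ± 2.48 FPKM in AMO1, above L363 (23.2 ± 0.23), ARH-77 (18.4 ± 3.42) and RPMI-8226 (17.5 ± 0.45). GABARAPL1 was at 5.02 ± 0.08 FPKM in AMO1, 4.67 ± 0.09 in L363 and 4.18 ± 0.98 in ARH-77, neighbours without a difference past the threshold (adjusted p = 0.708 and 0.482), and at 2.39 ± 0.08 in RPMI-8226.

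Bortezomib resistance went with many modest changes in AMO1 and RPMI-8226 and with few in L363 and ARH-77. In AMO1 BtzR against WT, 23 of 38 members passed the adjusted p, 12 higher and 11 lower, against 51.2% of all genes (25.6% higher and 25.6% lower). A member was called where the absolute change also reached 1 on the log2 scale, and 2 were called in AMO1 (WIPI1 and ATG101, both lower), against 9.18% of all genes (4.61% higher and 4.57% lower). In RPMI-8226, 24 passed, 13 higher and 11 lower, against 54.3% of all genes (30.2% higher and 24.2% lower), and 3 were called (SQSTM1 higher, WIPI1 and GABARAPL1 lower), against 13.8% (5.91% higher and 7.92% lower). In L363 BtzR, 2 passed, GABARAPL1 higher and BECN1 lower, against 11.2% of all genes (5.66% higher and 5.52% lower), and GABARAPL1 was called, against 2.06%. In ARH-77, 4 passed (ATG14, TFEB and CALCOCO2 higher and ULK2 lower), against 13.6% of all genes (5.98% higher and 7.6% lower). There 0 were called by limma, against 1.6%, with 0 also past the fold at an unadjusted p under 0.05 and 9 past that p at any fold. The members' median log2-fold change was -0.09 for AMO1 and for L363, 0.05 for RPMI-8226 and -0.10 for ARH-77, beside -0.002, 0, 0.05 and -0.045 over all genes tested. The share of members past the adjusted p was somewhat above that of all genes in AMO1 and RPMI-8226, while the share called was below it. The BtzR-to-WT change depended on the line (limma interaction F test over the 4 lines) in 28 of 38 members, against 71.1% of all genes, and with a span of at least 1 on the log2 scale in 8, against 32.6%.

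**Figure D2:**
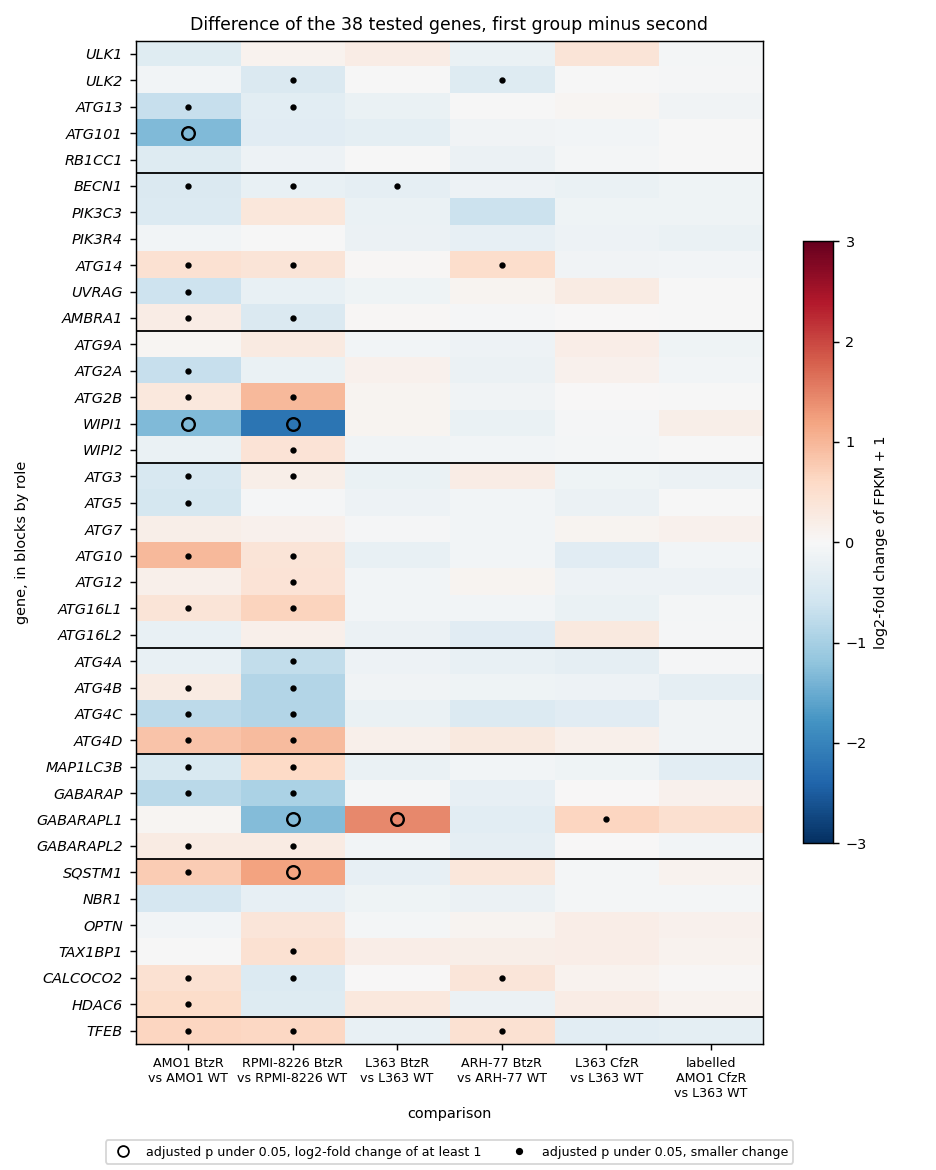
Log2-fold change of FPKM + 1 (colour, first group minus second) of the 38 tested members (rows, in blocks by role) in 6 comparisons (columns). Open circles mark members past the adjusted p with a log2-fold change of at least 1, and dots those past the adjusted p with a smaller change; WIPI1 at -1.32 and -2.20 and GABARAPL1 at 1.44 and -1.29 carry circles in 2 comparisons each.

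Of the members past the adjusted p, 18 were shared by AMO1 and RPMI-8226 (78.3% of those of AMO1 and 75% of those of RPMI-8226). Over all genes, 3872 were shared, out of 6702 past the adjusted p in AMO1 and 7112 in RPMI-8226. The direction was the same for 13 of the 18 (72.2%), beside 58.9% of the 3872 genes past the adjusted p in both. The 5 that went opposite ways were AMBRA1, ATG3, ATG4B, MAP1LC3B and CALCOCO2. Over the 4 bortezomib comparisons, 3 members passed in the same direction in 3 lines: BECN1 (lower in AMO1, L363 and RPMI-8226), ATG14 and TFEB (both higher in AMO1, RPMI-8226 and ARH-77). A further 12 did so in 2 lines and 14 in 1 line, 9 passed in no line, and 0 passed in all 4. The matching counts over all genes were not made, so these counts are not read as particular to the members.

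In the ULK complex, which starts autophagosome formation, no tested member was higher past the adjusted p in any bortezomib comparison. Of all genes, 25.6% were higher past it in AMO1, 30.2% in RPMI-8226, 5.66% in L363 and 5.98% in ARH-77. The complex has 5 genes here, few to set beside these shares. ATG101, which stabilises ATG13 within the complex, read 30.5 and 29.9 FPKM in AMO1 WT and 11.0 and 12.01 FPKM in AMO1 BtzR. The BtzR libraries lay well below the WT libraries, and the log2-fold change was -1.32 (SE 0.16, limma, adjusted p = 7.57e-06). In the other lines its log2-fold changes were -0.10 to -0.35, past no threshold. ATG101 shares 19.2% of its exonic bases with the antisense gene AC025259.1, whose part in this result was not tested. ATG13, the adaptor of the complex, read 17.6 and 18.6 FPKM in AMO1 WT and 11.6 and 10.3 in BtzR, and it fell by 0.68 on the log2 scale (adjusted p = 0.000113). In RPMI-8226 it read 19.2 and 21.8 FPKM in WT and 15.8 and 16.7 in BtzR (log2-fold change -0.32, adjusted p = 0.0225). It no longer passed without RPMI-8226 WT replicate 2 (-0.23, adjusted p = 0.171) or BtzR replicate 1 (-0.28, adjusted p = 0.101).

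ULK2 was low everywhere but in ARH-77. It read 3.11 and 3.88 FPKM in ARH-77 WT and 2.3 and 2.61 in ARH-77 BtzR, and fell by 0.38 on the log2 scale (limma, adjusted p = 0.00749). The pairs did not overlap, though the change no longer passed without ARH-77 WT replicate 2 (-0.25, adjusted p = 0.0508) or BtzR replicate 1 (-0.31, adjusted p = 0.0857). With pseudocounts of 0.1 and 0.01 FPKM the ARH-77 change was -0.49 and -0.50 and did not pass (limma, adjusted p = 0.139 and 0.317). Fitting the ARH-77 libraries alone gave an adjusted p of 0.38. In RPMI-8226 ULK2 read 0.76 and 0.72 FPKM in WT and 0.29 and 0.27 in BtzR. The log2-fold change there was -0.44 (adjusted p = 0.000424) with a pseudocount of 1 FPKM and -1.37 with 0.01 FPKM. ULK1, the paralogous kinase, and RB1CC1, the scaffold FIP200, passed in none of the 4 bortezomib comparisons, with log2-fold changes of -0.36 to 0.23 and of -0.38 to -0.015. RB1CC1 was near the threshold in AMO1 (-0.38, adjusted p = 0.0527), and it passed there with a filter of 5 FPKM, with equal library sums and with quantile normalization (0.0387 to 0.0478). The ULK1 libraries of RPMI-8226 BtzR lay far apart, at 7.33 and 15.5 FPKM.

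The class III PI3-kinase complex showed BECN1 lower and ATG14 higher. BECN1 encodes Beclin 1, the core subunit shared by all forms of the complex. It read 38.9 and 39.6 FPKM in AMO1 WT and 29.4 and 28.4 in AMO1 BtzR, a log2-fold change of -0.43 (SE 0.08, limma, adjusted p = 0.000365). In L363 it read 30.9 and 29.5 FPKM in WT and 25.2 and 24.3 in BtzR (-0.28, adjusted p = 0.0333). The direction was the same in both lines without overlap, but in L363 the adjusted p was 0.094 to 0.234 when any 1 of the 4 libraries was left out. RPMI-8226 read 30.3 and 32.1 FPKM in WT and 29.1 and 24.7 in BtzR (-0.21, adjusted p = 0.0338). Without its BtzR replicate 2 this change was -0.10 (adjusted p = 0.321), without WT replicate 2 it was -0.17 (adjusted p = 0.166), and without BtzR replicate 1 it was -0.33 (adjusted p = 0.00336). In ARH-77 the difference was -0.14, and the difference between the 4 lines had an interaction adjusted p of 0.134. BECN1 shares 12.4% of its exonic bases with CNTD1 on the opposite strand, which was at 0.815 to 1.07 FPKM in all groups.

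ATG14 directs the complex to the site of autophagosome formation, and it rose in 3 lines. AMO1 read 4.16 and 4.59 FPKM in WT and 6.78 and 6.04 in BtzR, a log2-fold change of 0.46 (limma, adjusted p = 0.000531). RPMI-8226 read 3.36 and 3.27 FPKM in WT and 4.76 and 4.6 in BtzR (0.40, adjusted p = 0.00151). ARH-77 read 2.36 and 2.86 FPKM in WT and 4.18 and 4.21 in BtzR (0.53, adjusted p = 0.000829). In each of the 3 lines both BtzR libraries lay above both WT libraries, and the change still passed when any 1 library of those comparisons was left out. With only the 4 ARH-77 libraries in the fit, the adjusted p was 0.236 there. In L363 the libraries overlapped, with 3.83 and 4.08 FPKM in WT and 4.01 and 4.07 in BtzR. UVRAG, which replaces ATG14 in a form of the complex that acts on endosomes, fell in AMO1 from 5.56 and 6.35 FPKM to 3.64 and 3.33 (-0.63, adjusted p = 6.23e-05). AMBRA1, a scaffold that links the ULK and PI3-kinase complexes, fell in RPMI-8226 from 5.54 and 5.8 FPKM to 3.71 and 4.17 (-0.43, adjusted p = 0.000666). In AMO1 AMBRA1 rose from 7.57 and 7.91 FPKM to 9.25 in each library (0.23, adjusted p = 0.039), and the adjusted p was 0.0714 to 0.154 with any of these 4 libraries left out. PIK3R4, the kinase's regulatory subunit, passed in no bortezomib comparison (-0.24 to -0.01). PIK3C3 also passed in none, and ARH-77 rested on WT replicate 1: the change was -0.64 with all libraries and -1.08 without that library (adjusted p = 0.000344). PIK3C3 also passed in ARH-77 with equal library sums (0.0457) and in AMO1 with only the libraries of that comparison (0.0313).

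Among the membrane supply proteins, WIPI1, which binds the lipid that the PI3-kinase complex makes, had a large change in RPMI-8226. With a pseudocount of 1 FPKM it was the largest of any member in the 4 bortezomib comparisons, while with 0.01 FPKM that of GABARAPL1 in the same line was larger (-2.61). It read 24.6 and 29.1 FPKM in RPMI-8226 WT and 2.81 and 8.57 in RPMI-8226 BtzR. Both resistant libraries were far below both WT libraries, and they also differed from each other by 1.33 on the log2 scale. The log2-fold change was -2.20 (SE 0.37, 95% CI -3.002 to -1.401, limma, adjusted p = 0.000163). In AMO1, WIPI1 read 27.8 and 45.2 FPKM in WT and 13.4 and 13.8 in BtzR, a log2-fold change of -1.32 (SE 0.37, adjusted p = 0.0084). The groups did not overlap, but without AMO1 WT replicate 2, the higher library, the change was -0.98 with an adjusted p of 0.0975. In L363 the 4 libraries of WT and BtzR lay between 27.4 and 30.2 FPKM, and in ARH-77 the WT libraries (8.8 and 20.3 FPKM) enclosed the BtzR libraries (13.7 and 9.86 FPKM). WIPI1 shares 24.3% of its exonic bases with ARSG on the opposite strand, and the strand setting of the counting is not given in the sources used here. ARSG was at 4.66 FPKM in RPMI-8226 WT and 2.78 in BtzR (limma, adjusted p = 0.0115), and at 4.18 and 2.43 FPKM in AMO1 (adjusted p = 0.0124). The part of ARSG in the WIPI1 result was not tested.

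WIPI2, the paralog needed for LC3 attachment, rose in RPMI-8226 from 22.1 and 21.0 FPKM to 27.7 and 30.4 (log2-fold change 0.41, limma, adjusted p = 0.0028). ATG2B and ATG2A are lipid transfer proteins that feed the growing membrane. ATG2B rose in RPMI-8226 from 4.74 and 5.61 FPKM to 10.4 and 11.8 (0.97, SE 0.10, adjusted p = 7.69e-07), just short of the fold for a call. It reached that fold without WT replicate 2 (1.07) or BtzR replicate 1 (1.05). In AMO1 ATG2B went from 4.78 and 4.71 FPKM to 6.16 and 6.13 (0.31, adjusted p = 0.0137), and the adjusted p was 0.0519 to 0.0584 without AMO1 WT replicate 2 or either BtzR library. ATG2A instead fell in AMO1, from 4.02 and 4.37 FPKM to 2.14 and 2.27 (-0.70, adjusted p = 0.000124), and the 2 ATG2 genes thus moved in opposite directions in that line. ATG9A, the lipid scramblase of the vesicles that seed the membrane, passed in no bortezomib comparison (-0.16 to 0.26), and it shares 38.8% of its exonic bases with AC068946.2 on the same strand.

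Of the 7 conjugation enzymes, 4 passed in AMO1 (2 higher and 2 lower) and 4 in RPMI-8226 (all higher), beside 51.2% and 54.3% of all genes, and 0 in L363 or ARH-77, beside 11.2% and 13.6%. By direction, the shares of all genes were 25.6% higher and 25.6% lower in AMO1, and 30.2% higher and 24.2% lower in RPMI-8226. The total counts are near the total shares, and 7 genes are too few to set beside shares by direction. ATG10, the E2-like enzyme that joins ATG12 to ATG5, read 0.87 and 1.31 FPKM in AMO1 WT and 3.16 and 3.05 in AMO1 BtzR. All BtzR values were above the WT values, with a log2-fold change of 0.98 (SE 0.14, limma, adjusted p = 4.5e-05), which became 1.13 without AMO1 WT replicate 2, 1.001 without BtzR replicate 2 and 1.53 with a pseudocount of 0.01 FPKM. In RPMI-8226 ATG10 read 4 and 3.84 FPKM in WT and 5.44 and 5.4 in BtzR (0.38, adjusted p = 0.0318, and 0.0821 to 0.12 with any 1 of these libraries left out). ATG16L1, which places the conjugation machinery on the membrane, rose in RPMI-8226 from 5.44 and 4.68 FPKM to 9.46 and 7.77 (0.66, adjusted p = 0.000108). In AMO1 it went from 8.24 and 7.81 FPKM to 10.5 and 11.3 (0.40, adjusted p = 0.00653, and 0.0543 without BtzR replicate 2).

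ATG5, the acceptor of ATG12, fell in AMO1 from 13.8 and 12.2 FPKM to 8.99 and 8.41 (log2-fold change -0.53, limma, adjusted p = 0.000963), and in the other lines it changed by -0.16 to -0.03, past no threshold. ATG12 itself rose in RPMI-8226 from 11.3 and 9.55 FPKM to 13.8 and 14.3 (0.40, adjusted p = 0.00219). ATG3 fell in AMO1 from 104 and 117 FPKM to 76.4 and 79.9 (-0.49, adjusted p = 5.98e-05). In RPMI-8226 it went the other way, from 52.3 and 49.2 FPKM to 59.2 and 56.6 (0.19, adjusted p = 0.0419). The change in RPMI-8226 no longer passed without WT replicate 2 (0.14, adjusted p = 0.205), without BtzR replicate 1 (0.15, adjusted p = 0.158) or without the libraries labelled AMO1 CfzR (adjusted p = 0.0522). ATG7, the E1-like enzyme, and ATG16L2 passed in no bortezomib comparison.

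The ATG4 proteases trim ATG8 proteins before conjugation and can release them again. All 4 passed the adjusted p in RPMI-8226 BtzR, ATG4D higher and the other 3 lower, and 0 were called. Of all genes 54.3% passed there (30.2% higher and 24.2% lower), and 4 genes are few to set beside these shares. ATG4D read 6.79 and 5.82 FPKM in WT and 15.4 and 11.3 in BtzR (log2-fold change 0.96, SE 0.14, limma, adjusted p = 4.06e-05). ATG4B, the main protease for LC3, read 11.5 and 11.7 FPKM in WT and 6.06 and 5.55 in BtzR (-0.89, SE 0.09, adjusted p = 1.59e-06). ATG4C read 10.1 and 10.9 FPKM in WT and 4.38 and 6.27 in BtzR (-0.88, adjusted p = 7.35e-05). In these 3 genes the pairs were clearly apart, as they were for ATG4A, which went from 15 and 16.3 FPKM to 8.31 and 9.65 (-0.74, adjusted p = 5.54e-05). Leaving out RPMI-8226 BtzR replicate 2 brought ATG4C to -1.10 and ATG4D to 1.17, and leaving out WT replicate 1 brought ATG4D to 1.06, past the fold for a call.

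AMO1 BtzR shared the directions of ATG4C and ATG4D. ATG4D rose from 6.36 and 6.99 FPKM to 12.2 and 13.4 (log2-fold change 0.85, limma, adjusted p = 0.000161), and ATG4C fell from 6.73 and 7.92 FPKM to 4.12 and 3.57 (-0.78, adjusted p = 0.000265). ATG4B went up instead, from 19.0 and 20.04 FPKM to 22.0 and 25.0 (0.25, adjusted p = 0.0377). It no longer passed without AMO1 WT replicate 1 (0.22, adjusted p = 0.162), WT replicate 2 (0.29, adjusted p = 0.0672) or BtzR replicate 2 (0.16, adjusted p = 0.278). The L363 groups, including CfzR, had ATG4D at 20.3 to 27.1 FPKM in all 6 libraries, above every library of the other lines apart from the libraries labelled AMO1 CfzR (21.2 and 20.1 FPKM). ATG4D shares 15% of its exonic bases with KRI1 on the opposite strand, and KRI1 was at 25.6 FPKM in AMO1 WT and 22.9 in BtzR (adjusted p = 0.292) and at 18.9 and 26.0 FPKM in RPMI-8226 (adjusted p = 0.00431). The part of KRI1 in the ATG4D result was not tested.

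The ATG8 proteins coat the autophagosome and hold its cargo receptors. GABARAP, the most abundant of their transcripts, fell in AMO1 from 142 and 163 FPKM to 92.3 and 80.5 (log2-fold change -0.81, SE 0.12, limma, adjusted p = 6.49e-05). In RPMI-8226 it fell from 150.3 and 142 FPKM to 78 and 73.2 (-0.94, SE 0.12, adjusted p = 1.18e-05). Both lines started near the same level and ended near that of L363, which read 75.7 and 73.3 FPKM in WT, 74.3 and 69.0 in BtzR and 80.1 and 70.3 in CfzR. ARH-77 read 30.1 and 41.2 FPKM in WT and 29.4 and 30.0 in BtzR (-0.24, adjusted p = 0.229). That change was -0.46 without ARH-77 WT replicate 1 (adjusted p = 0.00744) and -0.02 without WT replicate 2. GABARAP shares 30.5% of its exonic bases with AC120057.2 on the same strand, and how the counting split reads between them was not tested.

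GABARAPL1 was the member whose effect differed most between lines, with an interaction adjusted p of 1.69e-06 and a span of 2.73 on the log2 scale. It read 4.74 and 4.61 FPKM in L363 WT and 14.2 and 14.7 in L363 BtzR, a log2-fold change of 1.44 (SE 0.17, 95% CI 1.08 to 1.81, limma, adjusted p = 3.41e-05). In RPMI-8226 it read 2.45 and 2.33 FPKM in WT and 0.36 and 0.41 in BtzR, a change of -1.29 (SE 0.17, adjusted p = 1.46e-05). With a pseudocount of 0.01 FPKM that change was -2.61, since the pseudocount of 1 FPKM compresses values this low. The replicates were close in both lines, and neither call was lost when a library was left out. AMO1 read 5.08 and 4.96 FPKM in WT and 5.83 and 4.84 in BtzR (0.07, 95% CI -0.29 to 0.43), and ARH-77 read 3.49 and 4.88 in WT and 4.15 and 2.26 in BtzR (-0.33, 95% CI -0.69 to 0.04), with overlap in each. The ARH-77 change was -0.66 without BtzR replicate 1 (adjusted p = 0.0141) and 0.003 without BtzR replicate 2.

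Cells resistant to each of the 2 drugs could be compared within L363. Each resistant group is a single derived line, so drug and derived line cannot be told apart. L363 CfzR read 7.42 and 8.2 FPKM of GABARAPL1, between the WT and the BtzR libraries without touching either. The change from WT was 0.63 (SE 0.17, limma, adjusted p = 0.0305) and that from L363 BtzR was -0.81 (SE 0.17, adjusted p = 0.00776). The comparison with WT had an adjusted p of 0.0884 to 0.177 with any 1 library left out and of 0.0563 with a pseudocount of 0.1 FPKM. That with BtzR had 0.072 without BtzR replicate 2 and 0.079 without CfzR replicate 1, and 0.0543 when only the libraries of the comparison were fitted. UVRAG was the other member past the adjusted p between these 2 groups, with 3.97 and 4.22 FPKM in L363 BtzR and 5.56 and 5.68 in L363 CfzR (0.38, limma, adjusted p = 0.024). With any 1 library left out the UVRAG change was 0.34 to 0.41 and no longer passed. Against 6.13% of all genes, 2 of 38 members passed between the 2 resistant L363 groups, and 0 were called (1.47% of all genes). Against L363 WT, GABARAPL1 alone passed in L363 CfzR (8.47% of all genes) and 0 members were called by limma (1.93% of all genes), while 7 had an unadjusted p under 0.05. The other 37 members had log2-fold changes of -0.35 to 0.38, with 95% CIs that reached from -0.84 to 0.93. The BtzR and CfzR comparisons share the L363 WT libraries.

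MAP1LC3B fell in AMO1 BtzR from 45.4 and 48.9 FPKM to 38.9 and 29.5 (log2-fold change -0.46, limma, adjusted p = 0.0165), which no longer passed without AMO1 WT replicate 2 (-0.41, adjusted p = 0.0939) or BtzR replicate 2 (-0.27, adjusted p = 0.209). It rose in RPMI-8226 from 17.2 and 17.8 FPKM to 22.9 and 31.3 (0.59, adjusted p = 0.00353, and 0.37 with an adjusted p of 0.0615 without BtzR replicate 2). The near-identical copy MAP1LC3B2, with which reads can be exchanged, was at 0.56 to 2.51 FPKM in the group means. GABARAPL2 rose slightly in both lines: AMO1 went from 44.1 and 55.3 FPKM to 59.8 and 57.7 (0.24, adjusted p = 0.0371) and RPMI-8226 from 52.5 and 53.6 FPKM to 65.4 and 61.1 (0.25, adjusted p = 0.0333). In AMO1 the change was 0.09 without WT replicate 1 (adjusted p = 0.474) and 0.40 without WT replicate 2, and it did not pass without either BtzR library (adjusted p = 0.153 and 0.0796). In RPMI-8226 the change no longer passed without WT replicate 1 (adjusted p = 0.122), WT replicate 2 (0.0796) or BtzR replicate 1 (0.156).

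The sum of the 5 ATG8 transcripts read 236 and 272 FPKM in AMO1 WT and 197 and 173 in AMO1 BtzR. In RPMI-8226 it read 222 and 216 FPKM in WT and 167 and 166 in BtzR. ARH-77 read 97.3 and 117.57 FPKM in WT and 94.16 and 86.49 in BtzR. AMO1, RPMI-8226 and ARH-77 thus had a lower sum in BtzR cells without overlap, though the nearest ARH-77 libraries lay close. L363 stayed between 145 and 153 FPKM in all 6 libraries. GABARAP made up 59.9% ± 0.07 of the sum in AMO1 WT and 46.8% ± 0.18 in BtzR, and GABARAPL2 19.5% ± 1.17 and 31.9% ± 2.18 (SD, n = 2). The MAP1LC3B share in AMO1 was 18.6% ± 0.88 in WT and 18.4% ± 1.87 in BtzR. In RPMI-8226 the GABARAP share was 66.7% ± 1.28 in WT and 45.4% ± 1.88 in BtzR. There GABARAPL2 made up 24.2% ± 0.92 and 38% ± 1.72, and MAP1LC3B 8% ± 0.38 and 16.3% ± 3.63. In ARH-77 GABARAP made up 33% in both groups and GABARAPL2 46% and 44.6%. GABARAPL1 reached 9.72% ± 0.44 in L363 BtzR, and it lay at 5.22% or less in every other group.

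**Figure D3:**
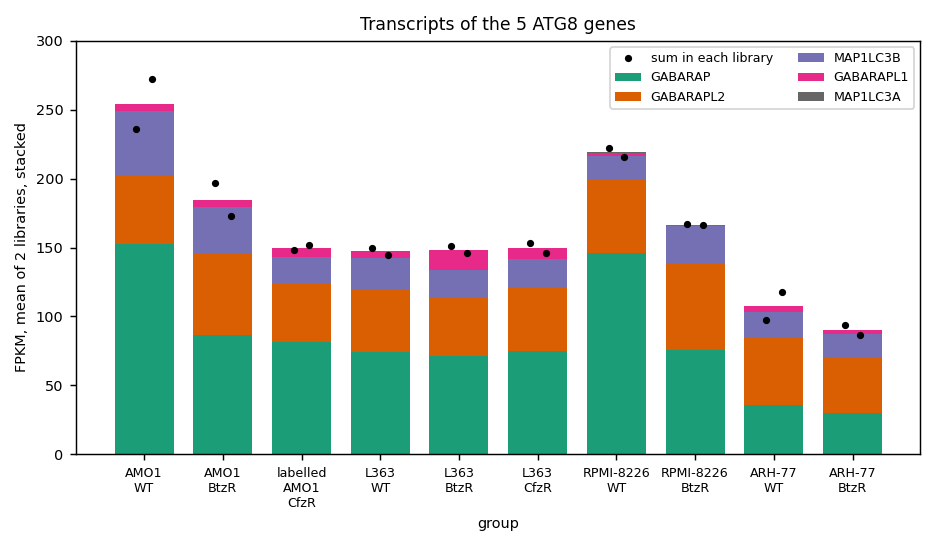
Mean FPKM of the 5 ATG8 genes (stacked bars) in the 10 groups, with black points for the summed FPKM of each of the 2 libraries. The GABARAP segment was 152 and 146 FPKM in AMO1 WT and RPMI-8226 WT and 86.4 and 75.6 FPKM in their BtzR cells.

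Of the cargo receptors, SQSTM1 rose in the same 2 lines. It read 78.0 and 70.2 FPKM in RPMI-8226 WT and 139.9 and 214 in RPMI-8226 BtzR, a log2-fold change of 1.22 (SE 0.20, 95% CI 0.78 to 1.65, limma, adjusted p = 0.000146). In AMO1 it read 231 and 184 FPKM in WT and 436 and 278 in BtzR, a change of 0.75 (SE 0.20, adjusted p = 0.00648). All resistant libraries were above their WT libraries, but the resistant replicates differed widely, by 0.61 and 0.65 on the log2 scale. Without RPMI-8226 BtzR replicate 2 the change was 0.91 (adjusted p = 0.00327). In AMO1 it was 0.43 without BtzR replicate 1 (adjusted p = 0.12), 0.59 without WT replicate 2 (adjusted p = 0.0727) and 1.08 without BtzR replicate 2, and with only the 4 AMO1 libraries in the fit the adjusted p was 0.1. L363 read 83.8 and 80.9 FPKM in WT, 68.6 and 68.8 in BtzR and 80.8 and 76.8 in CfzR, and the bortezomib change there was -0.26 (95% CI -0.69 to 0.18, adjusted p = 0.527), which passed as lower with only the 4 libraries in the fit (adjusted p = 0.0313). ARH-77 read 65.0 and 52.5 FPKM in WT and 81.1 and 66.9 in BtzR (0.33, 95% CI -0.11 to 0.77, adjusted p = 0.34). SQSTM1 shares 20.7% of its exonic bases with MRNIP on the opposite strand. MRNIP was at 4.43 FPKM in RPMI-8226 WT and 7.77 in BtzR (limma, adjusted p = 0.00123), and at 4.305 and 5.84 FPKM in AMO1 (adjusted p = 0.0459). In L363 and ARH-77 its bortezomib change did not pass (adjusted p = 0.352 and 0.482). The part of MRNIP in the SQSTM1 result was not tested.

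CALCOCO2 (NDP52), a receptor for bacteria and damaged mitochondria, rose in AMO1 from 16.6 and 19.8 FPKM to 26.6 and 23.7 (log2-fold change 0.45, limma, adjusted p = 0.00371, and 0.0544 without AMO1 WT replicate 1). It fell in RPMI-8226 from 16.8 and 16.5 FPKM to 10.9 and 13.9 (-0.40, adjusted p = 0.0065), a change of -0.24 without BtzR replicate 1 (adjusted p = 0.0981). ARH-77 had the highest levels, 47.9 and 55.7 FPKM in WT and 64.1 and 69.5 in BtzR (0.36, adjusted p = 0.0422). There the change no longer passed without WT replicate 1 (0.26, adjusted p = 0.165), BtzR replicate 1 (0.42, adjusted p = 0.0925), BtzR replicate 2 (0.31, adjusted p = 0.218) or the libraries labelled AMO1 CfzR (adjusted p = 0.0588). TAX1BP1, a receptor for ubiquitinated aggregates, rose in RPMI-8226 from 25.2 and 31.1 FPKM to 33.6 and 44.5 (0.45, adjusted p = 0.014). It was 0.25 without BtzR replicate 2 (adjusted p = 0.183) and 0.31 without WT replicate 1 (adjusted p = 0.154). HDAC6, the deacetylase that ties ubiquitinated proteins to dynein, rose in AMO1 from 6.06 and 6.81 FPKM to 9.9 and 9.78 (0.55, adjusted p = 0.0281, and 0.0569 to 0.138 with any 1 library left out). NBR1 and OPTN, both receptors for ubiquitinated cargo, passed in no bortezomib comparison, with log2-fold changes of -0.50 to -0.14 and of -0.08 to 0.36. NBR1 in AMO1 (-0.50, adjusted p = 0.0559) passed with equal library sums (0.0426).

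TFEB rose in 3 lines. RPMI-8226, the line with the lowest level, read 1.45 and 1.72 FPKM in WT and 2.57 and 3.38 in BtzR, a log2-fold change of 0.62 (SE 0.13, limma, adjusted p = 0.00131). AMO1 read 11.3 and 11.3 FPKM in WT and 17.6 and 18.9 in BtzR (0.65, adjusted p = 0.00105). ARH-77 read 27.7 and 19.8 FPKM in WT and 32.6 and 32.7 in BtzR (0.46, adjusted p = 0.0326). The groups were apart in each, and in ARH-77 the change was 0.70 without WT replicate 1 and 0.23 without WT replicate 2 (adjusted p = 0.244), while leaving out a BtzR library gave an adjusted p of 0.126 or 0.135 and fitting the 4 ARH-77 libraries alone gave 0.413. L363 read 12.5 and 12.7 FPKM in WT, 11.7 and 9.72 in BtzR and 9.96 and 10.1 in CfzR, and its changes of -0.22 and -0.31 passed no threshold. The interaction between bortezomib resistance and line had an adjusted p of 0.00288 for TFEB.

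**Figure D4:**
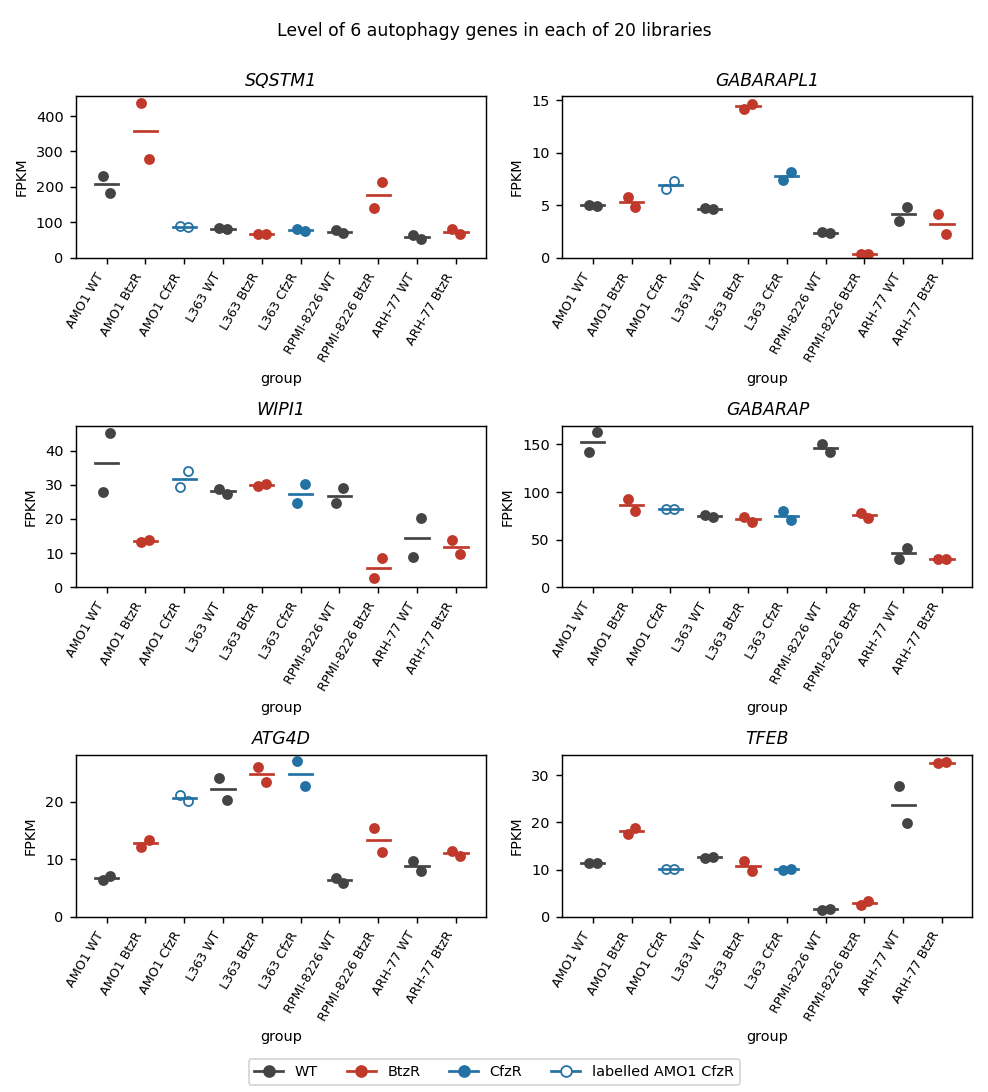
FPKM (vertical axes from 0) of 6 members in each of the 20 libraries (points) with the mean of each group of 2 (lines), WT in grey, BtzR in red and CfzR in blue, with open points for the libraries labelled AMO1 CfzR. SQSTM1 reached 436 FPKM in an AMO1 BtzR library, GABARAPL1 14.7 FPKM in L363 BtzR, and WIPI1 fell to 2.81 FPKM in RPMI-8226 BtzR.

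The libraries labelled AMO1 CfzR gave different answers with the 2 references. Against AMO1 WT, 24 of 38 members passed the adjusted p, 5 higher and 19 lower, against 57.7% of all genes (26.8% higher and 30.9% lower). Of these, 8 were called, 4 in each direction, against 17.1% of all genes (7.88% higher and 9.21% lower). The median over the members was -0.30 and over all genes -0.03. ATG12 read 5.26 and 5.62 FPKM in AMO1 WT and 17.8 and 17.3 in the labelled libraries (log2-fold change 1.53). ATG4D read 6.36 and 6.99, then 21.2 and 20.1 FPKM. TAX1BP1 read 19.9 and 21.1, then 47.0 and 48.6 FPKM (1.18). These were higher in both labelled libraries, as was ATG10, at 0.87 and 1.31, then 3.69 and 3.73 FPKM (1.18). MAP1LC3B went the other way, from 45.4 and 48.9 FPKM to 18.4 and 18.7 (-1.30), and so did SQSTM1, from 231 and 184 FPKM to 90.5 and 86.5 (-1.21). PIK3C3 fell from 14.6 and 15.3 FPKM to 7.25 and 6.21 (-1.05), and ATG9A from 17.9 and 20.2 FPKM to 8.84 and 9.14. In all 8 members the labelled libraries did not overlap with AMO1 WT. The highest of these 8 limma adjusted p values was 0.000605. PIK3C3 went under the fold without replicate 2 of the labelled libraries (-0.95), and ATG9A without AMO1 WT replicate 2 (-0.92) or replicate 1 of the labelled libraries (-0.98). The next 6 by size were GABARAP (142 and 163, then 81.7 and 82.0 FPKM, -0.88), ATG13 (17.6 and 18.6, then 9.32 and 9.58 FPKM, -0.87) and ATG4A (10.7 and 10.6, then 20.5 and 18.0 FPKM, 0.80). ATG101 (30.5 and 29.9, then 16.0 and 18.3 FPKM, -0.79), OPTN (11.6 and 13.6, then 6.62 and 7.69 FPKM, -0.74) and ATG5 (13.8 and 12.2, then 7.96 and 7.21 FPKM, -0.70) followed. The OPTN change no longer passed without AMO1 WT replicate 2 (adjusted p = 0.0662) or replicate 1 of the labelled libraries (adjusted p = 0.0627). Against L363 WT, 0 members passed the adjusted p (6.92% of all genes) or were called (1.66% of all genes), and 5 had an unadjusted p under 0.05. ATG12 was at 19.3 and 19.8 FPKM and SQSTM1 at 83.8 and 80.9 FPKM in L363 WT. All changes against L363 WT lay between -0.31 and 0.48, with 95% CIs that reached from -0.63 to 0.97. These comparisons share the labelled libraries, and the AMO1 WT and L363 WT libraries also serve the BtzR comparisons.

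Outside the members, 78 other genes of the pathway were looked at in 5 lists, of which 74 were tested. In AMO1 BtzR 34 of them passed the adjusted p, 16 higher and 18 lower, against 51.2% of all genes (25.6% higher and 25.6% lower). In RPMI-8226 37 passed, 25 higher and 12 lower, against 54.3% (30.2% higher and 24.2% lower). Both totals lay somewhat below the shares of all genes. In L363 BtzR 3 were higher and 6 lower, against 11.2% of all genes (5.66% higher and 5.52% lower). In ARH-77 2 were higher and 8 lower, against 13.6% (5.98% higher and 7.6% lower). The counts by list stand beside the same shares and cover few genes each. The 17 tested lysosome genes of the TFEB network had 3 higher and 5 lower in AMO1, 5 higher and 2 lower in RPMI-8226, and 0 higher and 2 lower in ARH-77, the 3 lines in which TFEB rose, with median log2-fold changes of -0.03, 0.06 and -0.15. Among 13 tested genes of aggresome and ubiquitin shuttling, 6 were higher and 1 lower in RPMI-8226, and 3 higher and 1 lower in AMO1. The 17 fusion and other core genes had 3 higher and 7 lower in AMO1 and 4 higher and 3 lower in RPMI-8226. The 11 mitophagy, ER-phagy and other receptors had 0 higher and 3 lower in AMO1 and 4 higher and 1 lower in RPMI-8226, and the 16 regulators 7 higher and 2 lower in AMO1 and 6 higher and 5 lower in RPMI-8226. In ARH-77 and L363 at most 3 genes of any list passed in a direction. Called were 3 genes in AMO1 (9.18% of all genes), 6 in RPMI-8226 (13.8%) and 0 in L363 BtzR (2.06%) and ARH-77 (1.6%). No gene of these lists was called in the same direction in 2 of the 4 bortezomib comparisons.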

How the data were processed

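RNA of 20 libraries in 10 groups, named from the sample labels, was sequenced on a BGISEQ instrument. The authors deposited a table of FPKM per gene. The submitters' processing notes name HISAT2 2.0.4, Bowtie2 2.2.5 and RSEM 1.2.12 without their roles, and the genome build and strand setting are not given in the sources used here. With no counts, depth is unknown and no counting interval can be given.

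Genes whose mean reached 1 FPKM in any group were kept, which left 13089 of 18305 genes and 38 of 39 members. log2(FPKM + 1) was fitted with limma 3.58.1 (R 4.3.3), a mean for each group over all libraries and a mean-variance trend, with Benjamini-Hochberg adjustment over all tested genes. Fold changes are on that scale and understate changes of low genes. A gene was past the threshold at an adjusted p under 0.05, and called if the absolute log2-fold change also reached 1. The spread is thus shared by all groups, with 10 residual degrees of freedom. An exact permutation test of 2 against 2 libraries cannot go below p = 0.33 and was not used. The procedure was tested on simulated data.

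Members and lists were chosen with earlier results of these data known. Libraries are given for members called in a comparison and for up to 6 further members past the adjusted p with the largest change. SQSTM1, the 5 ATG8 genes and the 6 members that varied most between WT lines were followed across groups. A further B-cell marker is not reported here. Further members were named by role after their values were seen. Alternatives were pseudocounts of 0.1 and 0.01 FPKM, no filter or one of 5 FPKM, equal library sums (TPM), quantile normalization, no trend, fewer libraries and a replicate block. Promoters came from RefSeq (GRCh38.p14) and exon overlaps from GENCODE. The gene coordinates of the deposited values are not used here.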

Additional observations from a re-analysis of the deposited data

Results flagged for a closer look

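For 8 members the change from WT to BtzR was unequal across the 4 lines in a test of the difference itself (limma interaction F test, Benjamini-Hochberg adjusted) and spanned at least 1 on the log2 scale. The log2-fold changes follow in the order AMO1, L363, RPMI-8226 and ARH-77. GABARAPL1 had the lowest interaction adjusted p, 1.69e-06, with 0.07, 1.44, -1.29 and -0.33. ATG4B had 2.88e-05, with 0.25, -0.11, -0.89 and -0.13, and ATG2B 4.42e-05, with 0.31, 0.08, 0.97 and -0.10. For ATG10 the interaction adjusted p was 0.000353, with 0.98, -0.23, 0.38 and -0.09. For ATG101 it was 0.00083, with -1.32, -0.28, -0.35 and -0.10. SQSTM1 had 0.00247, with 0.75, -0.26, 1.22 and 0.33, and MAP1LC3B 0.00262, with -0.46, -0.21, 0.59 and -0.09. WIPI1 had 0.00464, with -1.32, 0.09, -2.20 and -0.19. Among all genes 32.6% met both conditions.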

How the results depend on the processing

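The alternatives gave 944 refits of 69 log2-fold changes, those of SQSTM1, the ATG8 genes and the members given by rule in each comparison. Of these refits 872 stayed on their side of the adjusted p, 62 lost it and 10 gained it. The sign changed in 8, all of values past the adjusted p neither before nor after. The cause of the changes was not tested. In RPMI-8226 16 members passed with only the libraries of the comparison, beside 24, and in AMO1 16 to 19 passed with a library left out, beside 23. Relative to the count, the number past the adjusted p moved by over 1.5 times in the comparisons with few. In L363 BtzR it was 1 with equal library sums, 4 with only the libraries of the comparison and 1 whichever library was left out, beside 2. In L363 CfzR it was 0 with a pseudocount of 0.1 or 0.01 FPKM, without the filter, with only the libraries of the comparison and without any 1 library, beside 1. In ARH-77 it was 1 with a pseudocount of 0.1 or 0.01 FPKM and 0 with only the libraries of the comparison, beside 4. Leaving out an ARH-77 library gave 2 to 10, the 10 without WT replicate 1, and 0 to 1 called. The labelled libraries against L363 WT had 1 past with only the libraries of the comparison, beside 0. L363 CfzR against BtzR had 0 with only those libraries and 0 to 1 with a library left out, beside 2. Called members numbered 6 and 7 in RPMI-8226 with pseudocounts of 0.1 and 0.01 FPKM, beside 3, and 2 to 4 in AMO1 with a library left out, the 4 without BtzR replicate 2. With only the libraries of the comparison, the threshold was lost by ATG13, BECN1, ATG3, ATG12, MAP1LC3B, GABARAPL2, TAX1BP1 and CALCOCO2 in RPMI-8226 (adjusted p = 0.0625 to 0.204), by AMBRA1, ATG4B, MAP1LC3B, GABARAPL2 and SQSTM1 in AMO1 (0.0762 to 0.199), and by all 4 members in ARH-77 (0.236 to 0.413). Past the adjusted p with each library left out in turn were 13 of 23 members in AMO1, 16 of 24 in RPMI-8226, 1 of 2 in L363 BtzR and 1 of 4 in ARH-77. UVRAG and ATG2A in RPMI-8226 and ATG3 in ARH-77 passed with quantile normalization, and ATG4C and GABARAPL2 in ARH-77 with equal library sums (0.00662 to 0.0462). A lone remaining library was assumed to vary like the other groups.

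With the replicate number as a block, 25 members passed in AMO1 (RB1CC1 and NBR1 gained), 26 in RPMI-8226 (ATG101 and ATG9A gained) and 6 in ARH-77 (PIK3C3 and ATG4C gained), and the other counts were as without it, with 2 called in AMO1 and 3 in RPMI-8226. The labels do not say that a number marks a pair, and deviations of same-numbered libraries correlated at -0.00554 in AMO1 and at 0.12 to 0.245 in the other comparisons.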
